A study of Saccharomyces cerevisiae with 26 samples.

Results

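Loss of the metallothionein of budding yeast was examined during growth on ethanol and glycerol, by comparing messenger RNA of the cup1F8* strain with that of WT in SCEG medium. The comparison used the 4 cup1F8* libraries and the 3 WT libraries from SCEG, 7 of the 26 libraries of the series, chosen by their labels. Both strains are haploid MATa derivatives of S288C and share his3Δ1, leu2Δ0, met15Δ0 and ura3Δ0 as well as a restored HHT2 locus, (hht2Δ::ura3)Δ::HHT2. The cup1F8* strain carries, in addition, an early stop codon in CUP1, whose product Cup1 is a small cysteine-rich protein that binds cuprous copper. SCEG is synthetic complete medium with ethanol and glycerol in place of glucose, on which cells must respire, and SC is the glucose medium. Cultures went through 2 to 3 doublings in it before RNA was taken. The same stop codon was also compared in the H3A110C background, in which both histone H3 genes carry cysteine at residue 110, with 4 H3A110Ccup1F8* libraries and 3 H3A110C libraries from SCEG. Each strain is described as 1 constructed strain, and its RNA is described as coming from independent experiments. The labels do not tie single libraries to separate cultures, so p-values measure the spread between these libraries.

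Strain and sequencing set changed together in these data. The labels number all 8 libraries with cup1F8* as a set of their own, and the 12 SCEG libraries without it as another. This numbering is read here as separate sequencing sets. The allele and the set therefore cannot be told apart, here and in the H3A110C background alike. Total counts ranged over 8349051 to 10133258 across cup1F8* libraries, against 3915432 to 5096081 across those of WT. A level of 3 counts corresponded to at most 0.342 CPM (counts scaled to a common library size) in cup1F8* and 0.805 CPM in WT, which covers counting error only. Some features that no strain difference names also followed the set. YNL143C, a gene of unknown function picked here after its values were seen, had 11 to 34 counts in the 8 libraries with cup1F8*, 4335 to 12679 counts in the 12 others from SCEG and 11 to 21 counts in the SC libraries. Reads on YCR013C, which lies across PGK1, made up 102.1 to 118.5 CPM in cup1F8* and 11.3 to 13.2 CPM in WT, both by library totals. The part of the set in the values below was not tested.

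The labels of the strains could be checked only in part. LEU2, MET17 and URA3, deleted in both strains, had 0 to 3 counts in the 7 libraries. HIS3, which keeps part of its sequence in his3Δ1, had 199 to 279 counts in cup1F8* and 233 to 309 counts in WT. By library totals, HIS3 had 19.64 to 30.52 CPM in cup1F8* and 50.63 to 64.54 CPM in WT. STE2, the receptor of MATa cells, had 1095 to 1748 counts in cup1F8* and 797 to 1364 counts in WT. By library totals, STE2 had 131.2 to 178.9 CPM in cup1F8* and 156.4 to 284.9 CPM in WT. SAG1, an agglutinin gene of the opposite mating type, was also counted, at 410 to 577 in cup1F8* and 138 to 179 in WT. By library totals, SAG1 had 46.35 to 59.05 CPM in cup1F8* and 30.22 to 37.39 CPM in WT. No SCEG library, of 20, had a read on CUP1-1 or CUP1-2 (0 counts), whereas the 6 SC libraries had 478 to 1236 counts on CUP1-1 and 211 to 685 on CUP1-2. The allele could therefore not be checked from its gene. They belonged to 15 genes that were near 0 in every SCEG library but well counted in SC, among them HYP2, RPL39, RPL28 and RPL33A. Whether the SC and SCEG libraries were counted with the same annotation and settings was not tested, so these low counts are not read as low expression.

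Budding yeast cells divide their transcription between growth and maintenance. In fast growth, RNA polymerase I, RNA polymerase III and the genes for ribosomal proteins and ribosome assembly factors take up much of the transcription of the cell, under the control of the TORC1 and protein kinase A pathways. When growth slows or cells meet stress, these genes fall together, while genes for trehalose and glycogen, chaperones, antioxidant enzymes and protein turnover rise. The rising group often carries a stress response element, with the core AGGGG, which the activators Msn2 and Msn4 bind. Ribosome assembly genes often carry a PAC element, with the core GATGAG, and an RRPE element, with the core AAAATTT.

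Promoters of 7 genes described below are shown because they hold these short elements. Each line gives bases 300 to 101 before the start codon, read 5′ to 3′ on the strand of the gene from the RefSeq R64 assembly. Capitals mark the motif letters on either strand. The first 3 genes encode a glucose phosphate enzyme, a chaperone and a trehalose synthase subunit, and their capitals mark AGGGG.
PGM2 (chrXIII:477707-477906, minus strand): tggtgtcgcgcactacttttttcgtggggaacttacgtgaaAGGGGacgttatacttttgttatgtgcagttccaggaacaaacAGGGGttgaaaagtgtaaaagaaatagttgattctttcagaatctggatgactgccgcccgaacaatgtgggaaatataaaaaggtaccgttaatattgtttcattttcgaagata
HSP104 (chrXII:88323-88522, plus strand): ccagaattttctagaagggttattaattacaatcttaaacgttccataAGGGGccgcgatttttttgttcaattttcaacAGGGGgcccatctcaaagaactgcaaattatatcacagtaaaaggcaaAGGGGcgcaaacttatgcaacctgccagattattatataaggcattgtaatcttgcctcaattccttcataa
TSL1 (chrXIII:70324-70523, plus strand): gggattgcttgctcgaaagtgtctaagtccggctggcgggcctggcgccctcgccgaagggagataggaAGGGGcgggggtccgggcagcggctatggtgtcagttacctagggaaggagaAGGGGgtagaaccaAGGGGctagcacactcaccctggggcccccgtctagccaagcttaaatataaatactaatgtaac
PGM2 held 2 such matches, and HSP104 and TSL1 held 3 each. The next 3 genes encode a pair of nucleolar proteins and the largest subunit of RNA polymerase I. Their capitals mark GATGAG, here written CTCATC on the other strand, and AAAATTT or its reverse complement. A run of AAAATTTT holds 2 overlapping matches.
NSR1 (chrVII:807757-807956, minus strand): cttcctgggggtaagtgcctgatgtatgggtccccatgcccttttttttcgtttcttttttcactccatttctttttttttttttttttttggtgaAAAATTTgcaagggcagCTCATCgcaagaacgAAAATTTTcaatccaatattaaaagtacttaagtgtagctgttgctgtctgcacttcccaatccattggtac
NOP1 (chrIV:427064-427263, plus strand): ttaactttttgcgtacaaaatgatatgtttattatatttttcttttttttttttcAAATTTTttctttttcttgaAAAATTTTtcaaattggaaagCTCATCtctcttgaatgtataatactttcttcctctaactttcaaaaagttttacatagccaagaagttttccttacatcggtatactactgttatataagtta
RPA190 (chrXV:960687-960886, plus strand): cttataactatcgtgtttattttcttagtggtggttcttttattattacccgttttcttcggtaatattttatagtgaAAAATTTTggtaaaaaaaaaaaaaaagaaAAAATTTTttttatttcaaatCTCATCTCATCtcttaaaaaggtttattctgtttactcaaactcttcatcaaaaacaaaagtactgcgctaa
NSR1 and NOP1 held 1 PAC core and 3 RRPE matches each, and RPA190 held 2 and 4. RPN5 encodes a lid subunit of the proteasome, and its capitals mark GGTGGC, the core of the element bound by Rpn4, besides 1 AGGGG, 2 PAC and 2 RRPE matches.
RPN5 (chrIV:190624-190823, plus strand): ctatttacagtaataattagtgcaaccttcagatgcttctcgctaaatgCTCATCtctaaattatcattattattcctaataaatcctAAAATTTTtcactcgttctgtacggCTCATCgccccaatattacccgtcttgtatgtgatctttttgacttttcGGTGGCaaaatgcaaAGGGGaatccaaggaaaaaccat
These are matches of letters and not sites of binding.

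In cup1F8* relative to WT, 2024 of 5904 tested genes (34.3%) were higher and 2054 (34.8%) were lower. A gene was called where its Benjamini-Hochberg adjusted p, by the quasi-likelihood test of edgeR, was below 0.05. Together 69.1% of the genes were called, so a list of genes that had nothing in common would be expected to hold many calls. A change past 1 on the log2 scale was less usual, with 472 genes (7.99%) higher and 688 genes (11.7%) lower, or 19.6% in all. The CPM of the strains did not overlap for 68.1% of the genes. The median log2 fold change of all genes was 0.00341. The split of calls moved with the scaling. With total counts only, 2586 genes were higher and 1617 lower and the median of all genes became 0.16, and with trends in GC content and gene length removed, 1560 were higher and 2411 lower and the median became -0.11. Lists of genes are described below by their counts and medians, relative to these figures, with each gene's normalized CPM given per library. Under total counts only, the medians of the oxidative stress, respiratory chain and hexose transport lists turned from negative to positive, and no other list's median changed sign under any scaling tried.

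**Figure D1:**
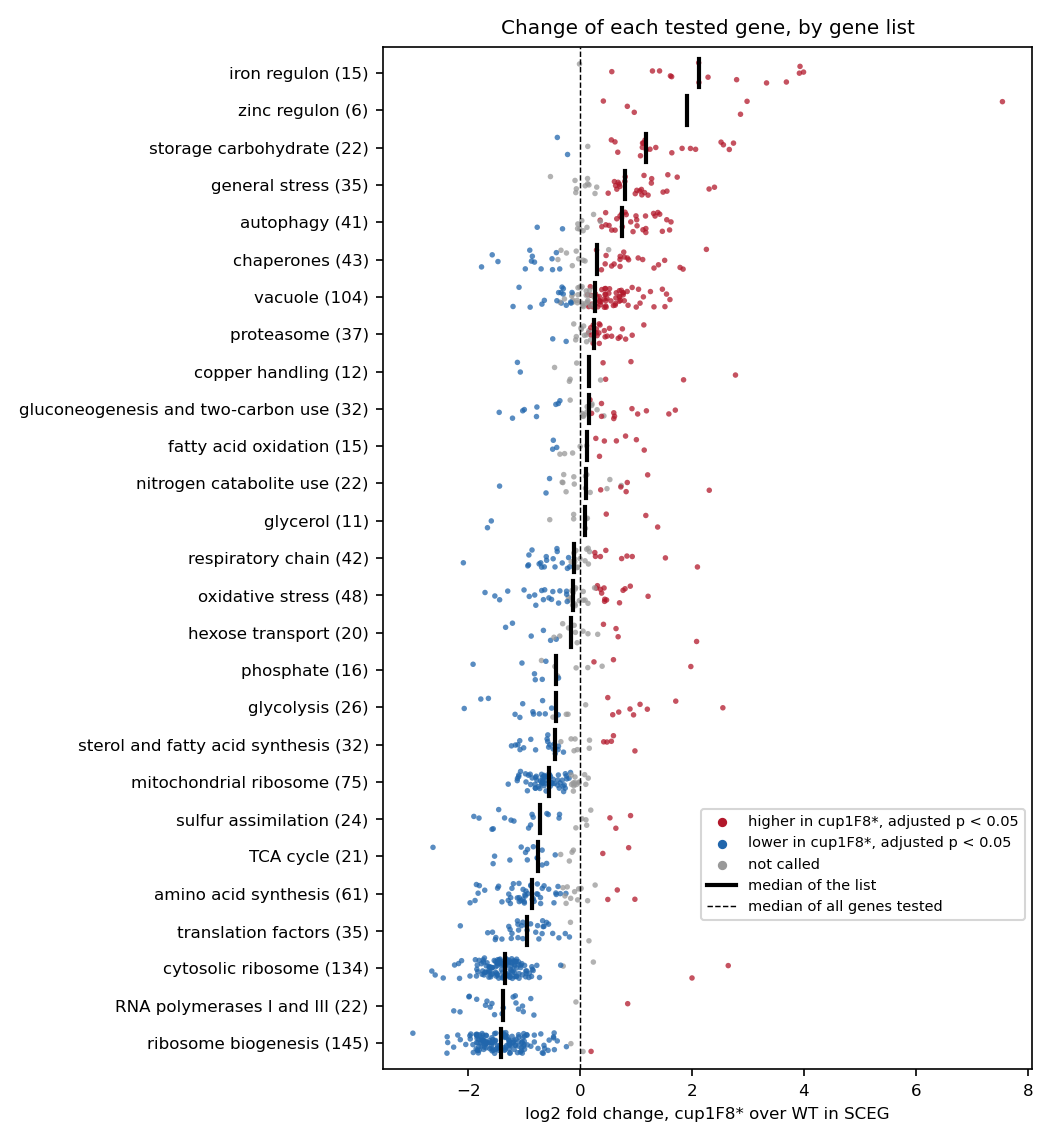
Each point is 1 tested gene, with the log2 fold change of cup1F8* over WT in SCEG on the horizontal axis and its gene list on the vertical axis (number tested in brackets). Red points were higher and blue points lower in cup1F8* at an adjusted p below 0.05, grey points were not called, the black bars are list medians and the dashed line is the median of all genes tested, 0.00341. Ribosome biogenesis, with a median of -1.40, is at the bottom, and the iron regulon, with a median of 2.12, is at the top.

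Genes of the ribosome were lower in cup1F8*. Of 134 tested genes for cytosolic ribosomal proteins, 130 were lower and 2 higher, with a median log2 fold change of -1.35, and 116 of them were past -1. All 56 genes of the small subunit were lower, and 74 of 78 of the large subunit. Together the 137 genes on the list took 4.08, 4.21 and 4.36% of the counted reads of a library in cup1F8* (lowest, median and highest) and 9.18, 9.23 and 9.29% in WT. The 12 SCEG libraries without cup1F8* lay between 6.88 and 9.69%, and the 8 libraries with it between 4.08 and 4.92%, without overlap. Not every list below separated in this way. General stress genes took 0.8599 to 1.698% in the 12 libraries and 1.609 to 2.067% in the 8. TCA cycle genes took 1.708 to 3.52% in the 12 libraries and 2.187 to 3.005% in the 8. RPL3, which encodes a protein near the peptidyl transferase centre, had 2018, 1935, 2028 and 1862 CPM in cup1F8*, against 4668, 4232 and 4162 CPM in WT. Every cup1F8* library lay below every WT library, with a log2 fold change of -1.15 ± 0.08 (SE, edgeR adjusted p = 5.26e-07). RPS3, a protein at the entry channel for mRNA, had 782, 778, 776 and 728 CPM in cup1F8* and 2055, 1896 and 1910 CPM in WT, a log2 fold change of -1.35 ± 0.07 (adjusted p = 7.71e-08). RPL25 and RPP0 fell by 1.31 and 1.14 on the log2 scale. The largest falls of the list were those of RPS28B, with a log2 fold change of -2.65 ± 0.12, and RPS9A, with -2.59 ± 0.16. RPS28B had 8.59 to 11.2 CPM in cup1F8* and 57.4 to 69 CPM in WT.

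The 2 ribosomal protein genes called higher were among those near 0 in SCEG. RPL28 had 37 to 63 counts per library in cup1F8* and 3 to 10 counts in WT, against 14614 to 20246 counts in SC. RPL33A had 10 to 24 counts in cup1F8*, 0 to 2 counts in WT and 7880 to 12113 counts in SC. With the genes near 0 left out, an alternative chosen after seeing the data, 0 ribosomal protein genes were higher and 130 were lower. Leaving out any 1 of the 4 cup1F8* libraries gave 1 gene higher. Many ribosomal protein genes exist as near-identical pairs, whose counts cannot be fully assigned to 1 copy.

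Ribosome assembly genes were lower as well. Among the 145 tested, 142 were lower and 1 higher, with a median log2 fold change of -1.40. By role, all 12 genes of snoRNPs and nucleolar proteins were lower, as were 54 of 56 genes of the small subunit processome and 40S assembly, all 18 RNA helicases and 58 of 59 genes of 60S assembly and export. The list took 1.32, 1.35 and 1.37% of counted reads in cup1F8* (lowest, median and highest) and 2.81, 2.94 and 3.39% in WT. NSR1 (chrVII:806412-807656), the yeast nucleolin, had 130.1, 126, 116 and 123 CPM in cup1F8*, against 585, 770.3 and 568 CPM in WT. The level in cup1F8* was 5.18-fold lower, with a log2 fold change of -2.37 ± 0.10 (edgeR adjusted p = 4.76e-08). NOP1 (chrIV:427364-428347), the methyltransferase fibrillarin of box C/D snoRNPs, had 284, 269.7, 269.7 and 253 CPM in cup1F8* and 887, 884 and 893 CPM in WT, a log2 fold change of -1.72 ± 0.06 (adjusted p = 2.28e-08). The helicase gene DHR2 had the largest fall of the list, with 8.21, 7.08, 8.21 and 7.92 CPM in cup1F8* and 51.9, 83.2 and 51.8 CPM in WT, a log2 fold change of -2.99 ± 0.18. PWP2, a core protein of the small subunit processome, had a log2 fold change of -2.38 ± 0.15, and the helicase gene DBP2 one of -2.26 ± 0.15. UTP10, NMD3 and NOP7, which act in 40S assembly, 60S export and 60S assembly, fell by 1.51, 1.26 and 0.94. The gene called higher was HRR25, a casein kinase with roles beyond ribosome assembly, at 276 to 279 CPM in cup1F8* and 227 to 255 CPM in WT, a log2 fold change of 0.20 ± 0.06.

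RNA polymerase I and III genes showed the same direction, with 20 of 22 tested lower, 1 higher and a median of -1.38. RPA190 (chrXV:960987-965981), the largest subunit of RNA polymerase I, had 187, 209.8, 189.6 and 189 CPM in cup1F8* and 664, 749.9 and 678 CPM in WT. Its log2 fold change was -1.85 ± 0.07 (edgeR adjusted p = 2.53e-08). RPA135, the second largest subunit, had 164, 159.9, 151 and 163 CPM in cup1F8* and 726, 866 and 689.7 CPM in WT, which is 4.78-fold lower in cup1F8*. RPO31, the largest subunit of RNA polymerase III, fell by 1.66, and RPC19, shared by both polymerases, by 2.14. The member called higher was MAF1, the repressor of RNA polymerase III, which had 116, 113, 110.2 and 125 CPM in cup1F8* and 66.8, 54.1 and 72.5 CPM in WT, a log2 fold change of 0.85 ± 0.10 (adjusted p = 2.72e-05).

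Of 35 tested translation factor genes, 33 were lower and 0 higher, with a median of -0.96. The 2 others were not called at the edgeR threshold, and 1 gene was called higher without WT replicate 2. YEF3, the fungal elongation factor 3, had 3083, 3056, 2665 and 2846 CPM in cup1F8* and 8266, 8292 and 8219 CPM in WT, which is 2.84-fold lower in cup1F8* (edgeR adjusted p = 1.33e-07). TIF4631, which encodes the scaffold eIF4G, fell by 1.65, PRT1, a subunit of eIF3, by 1.10, and CDC33, the cap-binding factor eIF4E, by 0.68. EFT1 and EFT2 encode identical copies of elongation factor 2, so their counts of 108 to 121 and 113 to 122 CPM in cup1F8*, against 333 to 372 and 493 to 559 CPM in WT, can be read only jointly. The 75 genes for mitochondrial ribosomal proteins moved less, with 61 lower, 0 higher and a median of -0.56. MRPL39 had 22.5 to 28.1 CPM in cup1F8* and 60.6 to 69.2 CPM in WT, a log2 fold change of -1.28 ± 0.10.

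**Figure D2:**
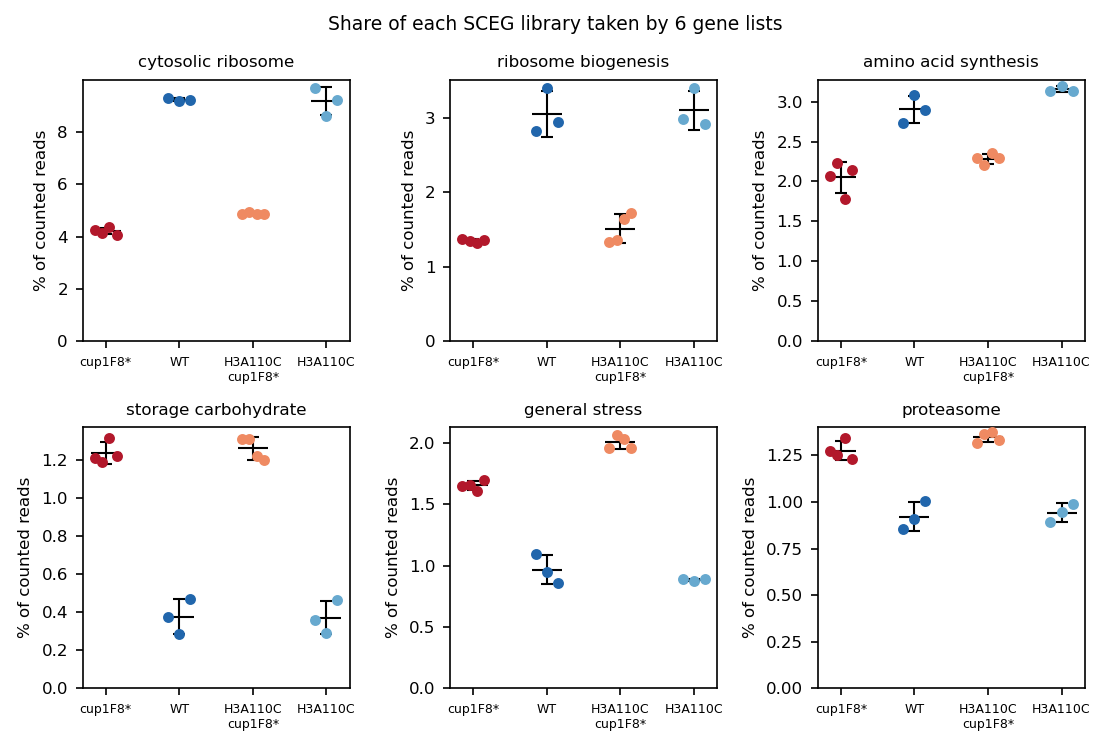
Each point is 1 SCEG library, and the vertical axis of each panel is the percent of its counted reads on the genes of 1 list. Columns are cup1F8* (n = 4), WT (n = 3), H3A110Ccup1F8* (n = 4) and H3A110C (n = 3), with the mean and SD. Cytosolic ribosome genes took 4.08 to 4.36% in cup1F8* and 9.18 to 9.29% in WT, and storage carbohydrate genes took 1.19 to 1.32% in cup1F8* and 0.287 to 0.469% in WT.

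Genes for storage carbohydrates were higher in cup1F8*. Yeast stores glucose as the branched polymer glycogen and the disaccharide trehalose, which also protects proteins and membranes. Among the 22 genes tested, 19 were higher, 2 lower and 16 higher past 1, with a median log2 fold change of 1.17. They took 1.19, 1.21 and 1.32% of counted reads in cup1F8* (lowest, median and highest) and 0.287, 0.372 and 0.469% in WT. GLC3, the glycogen branching enzyme, had 1816, 1721, 1950 and 1816 CPM in cup1F8* and 265, 124 and 432 CPM in WT. All cup1F8* libraries stood above all WT libraries, although the WT libraries differed among themselves, and the log2 fold change was 2.74 ± 0.33 (edgeR adjusted p = 4.09e-05). GDB1, the debranching enzyme, had 722, 674, 651 and 778 CPM in cup1F8* and 114, 106 and 113 CPM in WT, a log2 fold change of 2.67 ± 0.08 (adjusted p = 2.06e-08). GPH1, the phosphorylase that releases glucose phosphate from glycogen, was 4.19-fold higher in cup1F8*, and GSY2, the main glycogen synthase, 2.19-fold.

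PGM2 (chrXIII:475897-477606), the main phosphoglucomutase, had 797, 744, 898 and 804 CPM in cup1F8* and 149, 118 and 146 CPM in WT, a log2 fold change of 2.56 ± 0.10 (edgeR adjusted p = 3.22e-08). Trehalose genes rose on both sides of the pathway. TPS1, the trehalose phosphate synthase, had 1109, 1056, 1120 and 1055 CPM in cup1F8* and 499.7, 385 and 483 CPM in WT, a log2 fold change of 1.25 ± 0.09. TSL1, a regulatory subunit of the synthase, rose by 1.35 ± 0.16, and NTH1, the neutral trehalase that breaks trehalose down, by 1.08 ± 0.08. The members called lower were PGM1, the minor phosphoglucomutase, with 118 to 126 CPM in cup1F8* and 131 to 156 CPM in WT, and GLG2, a primer of glycogen synthesis, with 34.3 to 47.8 CPM in cup1F8* and 45.7 to 59.3 CPM in WT. GLG2 overlapped between the strains, and neither was called lower with WT replicate 3 left out. Without that library the list median was 1.44.

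General stress genes moved the same way, with 25 of 35 tested higher, 0 lower and a median of 0.80. GAD1, glutamate decarboxylase, had 296, 279, 323 and 294 CPM in cup1F8* and 66.8, 55.9 and 45.4 CPM in WT, a log2 fold change of 2.40 ± 0.12 (edgeR adjusted p = 7.21e-08). SOL4, a 6-phosphogluconolactonase, was 4.95-fold higher in cup1F8*. CTT1, the cytosolic catalase, had 109.5, 217, 169 and 147 CPM in cup1F8* and 83.8, 38.4 and 40.8 CPM in WT, a log2 fold change of 1.55 ± 0.29 (adjusted p = 0.00087). The small heat shock protein gene HSP12, often used as a reporter of this response, had 3880, 4271, 3569 and 3960 CPM in cup1F8* and 3112, 2474 and 1595 CPM in WT, a log2 fold change of 0.71 ± 0.19 (adjusted p = 0.00624). XBP1, a repressor made in stress, rose by 0.70 ± 0.21, and DDR2 by 0.61 ± 0.19 with overlap between the strains. MSN4, which encodes one of the activators, was not called, with 84.6 to 100 CPM in cup1F8* and 79.3 to 97.6 CPM in WT. It was called without WT replicate 2 and with total counts only.

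Chaperone genes split by compartment and family. Of 43 tested, 21 were higher and 13 lower, with a median of 0.29, which became 0.02 when trends in GC content and gene length were removed. Heat shock proteins and cytosolic chaperones were higher in 11 of 27 cases (40.7%) and lower in 8 (29.6%), with a median of 0.06. The shares of all genes were 34.3% and 34.8%, so the cytosolic genes named next are the larger changes of a mixed role. HSP104, the disaggregase that frees proteins from aggregates, had 2686, 2555, 2902 and 2530 CPM in cup1F8* and 687, 468 and 518 CPM in WT. This was 4.78-fold higher in cup1F8*, with a log2 fold change of 2.26 ± 0.13 (edgeR adjusted p = 2.55e-07). The sequestrase gene HSP42 rose by 1.84 ± 0.17, the stress-induced Hsp70 gene SSA4 by 1.79 ± 0.10 and HSP26 by 1.32 ± 0.35. Genes for folding in the endoplasmic reticulum were higher in 9 of 10 cases and lower in 0. KAR2, the Hsp70 of that compartment, had 1319, 1316, 1407 and 1400 CPM in cup1F8* and 658, 617 and 604 CPM in WT, a log2 fold change of 1.12 ± 0.07. Of 6 mitochondrial chaperone genes, 5 were lower and 1 higher, and HSP60 fell by 0.85 ± 0.10. SSB1, the Hsp70 that works on nascent chains at the ribosome, had 303 to 352 CPM in cup1F8* and 1119 to 1151 CPM in WT, a log2 fold change of -1.76 ± 0.07, but shares sequence with SSB2. The Hsp40 gene YDJ1 fell by 1.57 ± 0.10.

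Proteasome genes rose by small amounts. The proteasome breaks down proteins tagged with ubiquitin, and Rpn4 activates its genes. Of 37 tested, 24 were higher and 2 lower, with a median of 0.26, and 1 gene was past 1. RPN4 itself had 269, 278, 317 and 303 CPM in cup1F8* and 175, 157 and 215 CPM in WT, a log2 fold change of 0.68 ± 0.11 (edgeR adjusted p = 0.00023). RPN9, a lid subunit, had 268, 284, 284 and 262 CPM in cup1F8* and 117, 116 and 140.4 CPM in WT, a log2 fold change of 1.14 ± 0.08, and RPN5 rose by 0.93 ± 0.07. BLM10, an alternative activator of the core particle, fell by 0.49 ± 0.06. PRE8, a core particle subunit, was the other gene called lower, with overlapping libraries and a log2 fold change of -0.25 ± 0.10, and it lost its call when either of 2 WT libraries or any of 3 cup1F8* libraries was left out.

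**Figure D3:**
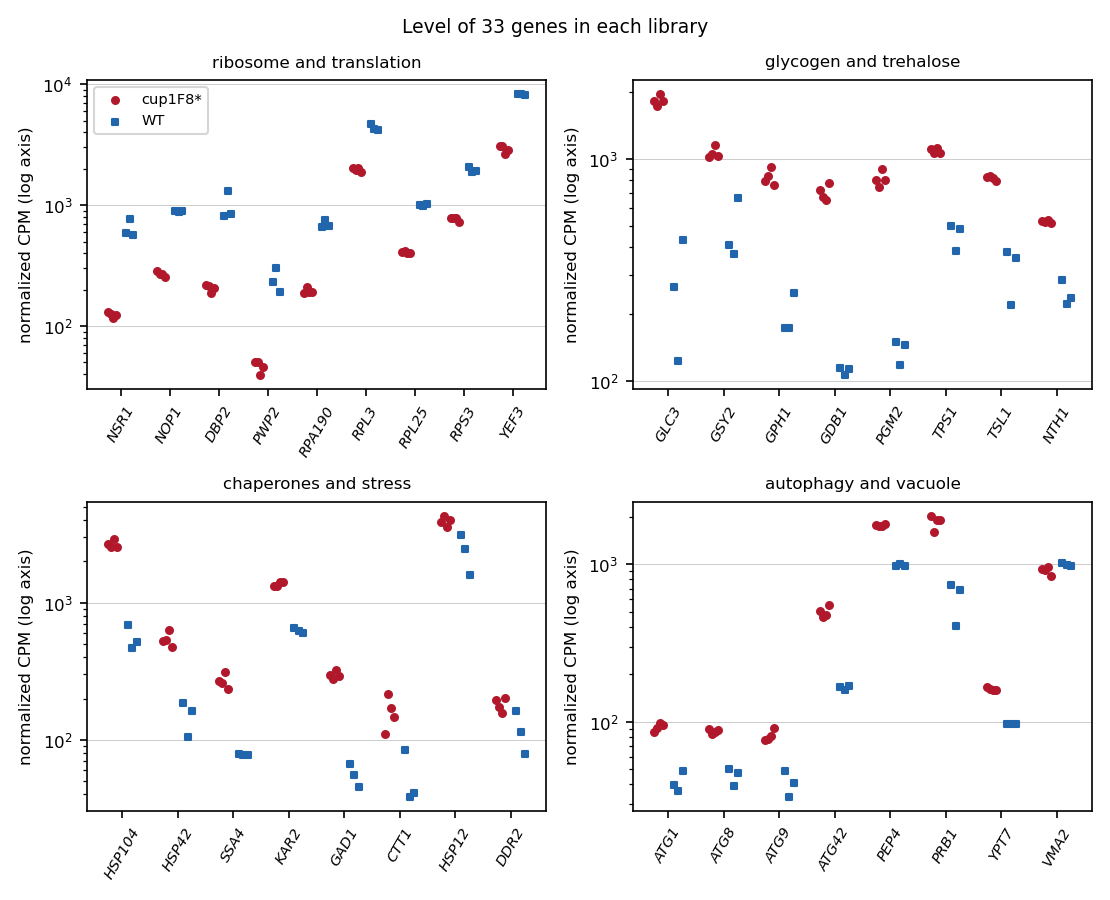
Each point is the normalized CPM of 1 gene in 1 library, on a log axis, with red circles for cup1F8* (n = 4) and blue squares for WT (n = 3). In the panel of ribosome and translation genes, NSR1 had 116 to 130.1 CPM in cup1F8* and 568 to 770.3 CPM in WT, and in the panel of glycogen and trehalose genes, GDB1 had 651 to 778 CPM in cup1F8* and 106 to 114 CPM in WT.

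Autophagy genes were higher in cup1F8*. Autophagy encloses cytoplasm in a double membrane and delivers it to the vacuole, where hydrolases digest it. Of 41 tested genes, 31 were higher and 2 lower, with a median of 0.75. Among the core machinery, 17 of 20 were higher and 0 lower, and among selective receptors and factors, 14 of 21 were higher and 2 lower. ATG1 (chrVII:160065-162758), the kinase that starts the process, had 86.5, 91.1, 98.7 and 96 CPM in cup1F8* and 39.8, 36.4 and 48.6 CPM in WT, a log2 fold change of 1.17 ± 0.10 (edgeR adjusted p = 3.53e-06). ATG8, the ubiquitin-like protein joined to the membrane lipid, had 90.2, 83.7, 86.4 and 88.1 CPM in cup1F8* and 49.8, 38.8 and 47 CPM in WT, a log2 fold change of 0.95 ± 0.09. ATG9, the membrane protein that seeds the structure, was 2.00-fold higher in cup1F8*. ATG29, part of the scaffold, had the largest rise of the list at 1.63 ± 0.21. ATG42, a vacuolar carboxypeptidase, rose by 1.60 ± 0.08, with 464 to 549.9 CPM in cup1F8* and 159 to 168 CPM in WT. ATG32, the receptor for mitochondria, rose by 0.63 ± 0.10. The genes called lower were ATG41, with 13.7 to 27.2 CPM in cup1F8* and 29.1 to 42.4 CPM in WT, and ATG44, a mitochondrial fission factor, with 26.1 to 32.9 CPM in cup1F8* and 33.6 to 39.7 CPM in WT. ATG44 was not called without WT replicate 2 or without any 1 of 3 cup1F8* libraries, and ATG41 was not called without WT replicate 3. The list took 0.691 to 0.8% of counted reads in cup1F8* and 0.502 to 0.542% in WT, but 0.511 to 0.581% in H3A110Ccup1F8* and 0.54 to 0.585% in H3A110C, where the libraries overlapped.

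Of 104 vacuole genes tested, 59 were higher and 16 lower, with a median of 0.27. The number lower was 10 without WT replicate 2, 10 without cup1F8* replicate 2 and 8 with total counts only. The median became 0.43 with total counts only and 0.11 with trends in GC content and gene length removed. Hydrolases and their inhibitors were higher in 9 of 12 cases and lower in 1. PRB1, proteinase B, had 2023, 1599, 1900 and 1895 CPM in cup1F8* and 740.2, 406 and 681 CPM in WT, a log2 fold change of 1.61 ± 0.19 (edgeR adjusted p = 2.89e-05). PEP4, proteinase A, which activates the other hydrolases, had 1775, 1740, 1743 and 1798 CPM in cup1F8* and 978, 997 and 975 CPM in WT, a log2 fold change of 0.84 ± 0.06, and PRC1, carboxypeptidase Y, rose by 0.46 ± 0.06. The genes of HOPS, CORVET and fusion were higher in 12 of 15 cases and lower in 0, and YPT7, the Rab GTPase of vacuole fusion, had 159 to 165 CPM in cup1F8* and 96.7 to 97.1 CPM in WT, a log2 fold change of 0.74 ± 0.05. Genes of ESCRT and retromer were higher in 15 of 24 cases and lower in 1, with VPS35, the cargo-binding subunit of retromer, at 0.71 ± 0.06.

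Among 21 genes for subunits and assembly of the V-ATPase, the proton pump of the vacuole, 8 (38.1%) were higher and 5 (23.8%) lower, with a median of 0.14, near the shares of all genes. VMA2, the regulatory B subunit, was not called, with 839 to 953 CPM in cup1F8* and 968 to 1016 CPM in WT. VMA1, the catalytic subunit, had a log2 fold change of 0.20 ± 0.06 and was not called without WT replicate 3 or without cup1F8* replicate 1. PKR1, an assembly factor of the pump, fell by 1.20 ± 0.10. Vacuolar transporter genes were also split, with 12 of 27 higher and 8 lower. RTC2, an exporter of cationic amino acids, rose by 1.55 ± 0.22 and its relative YPQ1 fell by 1.09 ± 0.12. YCF1, the transporter of glutathione conjugates, was not called, with 382 to 401 CPM in cup1F8* and 345 to 418 CPM in WT.

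Of 12 tested copper genes other than CUP1, 5 (41.7%) were higher and 2 (16.7%) lower, fewer calls than the 69.1% of all genes. CRS5, the second metallothionein gene of yeast, had 48.1, 49.7, 45.4 and 59.4 CPM in cup1F8* and 18.1, 13.8 and 9.66 CPM in WT, a log2 fold change of 1.85 ± 0.18 (edgeR adjusted p = 7.86e-06). CCC2, the Golgi pump that supplies copper to the iron oxidase Fet3, had 310.4, 195, 249 and 339.7 CPM in cup1F8* and 38.3, 35.9 and 45.9 CPM in WT, a log2 fold change of 2.78 ± 0.20. FRE1, a surface reductase of copper and iron, rose by 0.91 ± 0.10. CTR1, the main copper importer, had 19.8, 26.4, 25 and 16.4 CPM in cup1F8* and 47, 44.6 and 46.2 CPM in WT, a log2 fold change of -1.07 ± 0.15 (adjusted p = 0.000144). COX17, which carries copper to cytochrome oxidase, fell by 1.12 ± 0.10. CUP2, the activator of CUP1, was not called, with 8.21 to 12.2 CPM in cup1F8* and 8.86 to 12.3 CPM in WT.

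Antioxidant genes did not all move the same way. Of 48 tested, 13 were higher and 19 lower, with a median of -0.13 that became 0.03 with total counts only. Genes for catalase, superoxide dismutase, regulators and NADPH were lower in 10 of 15 cases and higher in 2, with a median of -0.36. Thioredoxin, peroxiredoxin and glutaredoxin genes were higher in 6 of 20 cases and lower in 5. Glutathione genes were higher in 5 of 13 cases and lower in 4. SOD1, the copper and zinc superoxide dismutase, was not called, with 767 to 989 CPM in cup1F8* and 755 to 1220 CPM in WT, nor were TSA1, the main peroxiredoxin, and GLR1, glutathione reductase. ECM4, a glutathione transferase, had 138, 116, 146 and 131 CPM in cup1F8* and 57.8, 60.8 and 52.9 CPM in WT, a log2 fold change of 1.22 ± 0.09 (edgeR adjusted p = 1.65e-06). The glutaredoxin gene GRX2 rose by 0.90 ± 0.07, the thioredoxin gene TRX2 by 0.43 ± 0.06 and YAP1, the activator of the response to peroxide, by 0.31 ± 0.06. GND1, a source of NADPH, had 128 to 136 CPM in cup1F8* and 313 to 510.1 CPM in WT, a log2 fold change of -1.52 ± 0.15. DUG3, which acts in glutathione breakdown, fell by 1.70 ± 0.11.

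Genes of the TCA cycle were mostly lower, with 15 of 21 tested lower, 2 higher and a median of -0.76. ACO1, mitochondrial aconitase, an iron-sulfur enzyme, had 1616, 2467, 1801 and 1913 CPM in cup1F8* and 4959, 4628 and 4355 CPM in WT, a log2 fold change of -1.25 ± 0.13 (edgeR adjusted p = 1.48e-05). IDH1, a subunit of isocitrate dehydrogenase, fell by 1.55 ± 0.09, SDH2, the iron-sulfur subunit of succinate dehydrogenase, by 0.77 ± 0.14 and CIT1, mitochondrial citrate synthase, by 0.60 ± 0.11. CIT2, the peroxisomal citrate synthase and a target of the retrograde pathway, had 2385, 2706, 1822 and 2251 CPM in cup1F8* and 1638, 975 and 1148 CPM in WT, a log2 fold change of 0.87 ± 0.18.

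The respiratory chain was not uniform, with 9 of 42 tested genes higher, 19 lower and a median of -0.11 that became 0.05 with total counts only. Genes of complex III and cytochrome c were lower in 10 of 16 cases and higher in 3. CYC1, the main cytochrome c, had 106, 166, 134 and 111 CPM in cup1F8* and 666, 552 and 424 CPM in WT, a log2 fold change of -2.08 ± 0.18 (edgeR adjusted p = 3.05e-06). CYT1 and RIP1, the cytochrome c1 and iron-sulfur subunits of complex III, fell by 0.92 ± 0.10 and 0.70 ± 0.11. Complex IV had 4 of 10 genes higher and 2 lower, and COX4 and COX5A were not called. COX4 was called without WT replicate 1, with total counts only and with all 20 SCEG libraries in 1 fit. COX26, a small protein of the same supercomplex, rose by 2.10 ± 0.17 and CYB2, the lactate dehydrogenase that feeds cytochrome c, by 1.53 ± 0.16. ATP1, a subunit of the ATP synthase, fell by 0.32 ± 0.08. HAP4, the activator of these genes, had 597 to 775 CPM in cup1F8* and 830.1 to 1025 CPM in WT, a log2 fold change of -0.43 ± 0.10.

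In the use of ethanol and other compounds of short carbon chains, 12 of 32 tested genes were higher and 9 lower, a share close to the 34.3% and 34.8% of all genes. The regulators were higher in 5 of 7 cases and lower in 1. SIP4, an activator of gluconeogenic genes, had 102, 118, 90.8 and 117 CPM in cup1F8* and 30.6, 36.8 and 30.9 CPM in WT, a log2 fold change of 1.70 ± 0.12 (edgeR adjusted p = 9.24e-07), and CAT8 rose by 1.03 ± 0.08. JEN1, the lactate and pyruvate importer, had 4502, 4452, 4556 and 3817 CPM in cup1F8* and 1647, 1178 and 1499 CPM in WT, a log2 fold change of 1.59 ± 0.12. PCK1, the committed enzyme of gluconeogenesis, rose by 0.93 ± 0.12, whereas FBP1, another enzyme of the pathway, was not called, with 1312 to 1583 CPM in cup1F8* and 1312 to 1421 CPM in WT. ICL1, of the glyoxylate cycle, missed the threshold with a log2 fold change of 0.43 ± 0.17 (adjusted p = 0.0506). It was called higher by DESeq2 and in 6 other alternatives that kept all 7 libraries, and also without WT replicate 1 or without cup1F8* replicate 3. ADH2, which oxidizes ethanol, had 1643, 1656, 1910 and 1361 CPM in cup1F8* and 3185, 3083 and 3553 CPM in WT, a log2 fold change of -0.99 ± 0.11. ACS2, one of the acetyl-CoA synthetases, fell by 1.44 ± 0.12 and ACS1, the other, rose by 0.60 ± 0.14.

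Of 11 glycerol genes, 3 (27.3%) were higher and 2 (18.2%) lower, below the 34.3% and 34.8% of all genes. STL1, the glycerol importer, had 652, 685, 582 and 706 CPM in cup1F8* and 254, 299.6 and 319 CPM in WT, a log2 fold change of 1.18 ± 0.10 (edgeR adjusted p = 2.69e-06), and GPD1, the first enzyme of glycerol synthesis, rose by 1.39 ± 0.11. GPP1 and GPP2, which act after it, fell by 1.59 ± 0.21 and 1.65 ± 0.25. GUT1, the glycerol kinase, was not called, but it was called without cup1F8* replicate 3. Glycolysis had 9 of 26 genes (34.6%) higher and 13 (50%) lower, with a median of -0.44. Paralogs went opposite ways. TDH1, the minor glyceraldehyde phosphate dehydrogenase, had 2069, 2064, 2492 and 2083 CPM in cup1F8* and 464, 271 and 378 CPM in WT, a log2 fold change of 2.55 ± 0.17, while TDH3, the major one, had -0.51 ± 0.14. HXK2, the hexokinase of glucose growth, had 398, 383, 333 and 297 CPM in cup1F8* and 2014, 1439 and 983 CPM in WT, a log2 fold change of -2.07 ± 0.20, while HXK1 rose by 0.58 ± 0.16. TDH3 shares sequence with its paralogs, which limits how exactly its reads were assigned.

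Among 20 hexose transport genes, 4 (20%) were higher and 6 (30%) lower, below the 34.3% and 34.8% of all genes. The number lower was 3 without WT replicate 1 and 9 without WT replicate 3. HXT5, a carrier that cells use in slow growth, had 339.7, 319.9, 280.0 and 296 CPM in cup1F8* and 120.3, 62.5 and 32.8 CPM in WT, a log2 fold change of 2.08 ± 0.31 (edgeR adjusted p = 0.00018). Fatty acid oxidation had 7 of 15 genes higher and 3 lower, with a median of 0.12, which was 0.33 without WT replicate 1, -0.05 without WT replicate 2 and -0.07 without WT replicate 3. The number lower was 1 without cup1F8* replicate 1 or without cup1F8* replicate 4. PXA1 and PXA2, which import long fatty acids into peroxisomes, rose by 1.01 ± 0.21 and 1.15 ± 0.16. POX1 and POT1, the first and last enzymes of the cycle, were not called. POT1 had 51.2 to 63.4 CPM in cup1F8*, inside the 27.6 to 91.8 CPM of WT, and was called without WT replicate 1.

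Amino acid synthesis genes were lower, with 47 of 61 tested lower and 3 higher, and a median of -0.85. The leucine, isoleucine and valine genes were lower in 10 of 11 cases and the arginine and lysine genes in 15 of 17. LYS4, homoaconitase, an iron-sulfur enzyme, had 97.9, 117, 88.2 and 88 CPM in cup1F8* and 318, 357 and 345 CPM in WT, a log2 fold change of -1.80 ± 0.10 (edgeR adjusted p = 1.82e-07). LEU9 had 50.4, 67.5, 51.3 and 57.9 CPM in cup1F8* and 205, 209 and 211 CPM in WT, and ILV3, another iron-sulfur enzyme, fell by 1.28 ± 0.12. ARG3, ornithine carbamoyltransferase, fell by 1.96 ± 0.24, and GLT1, glutamate synthase, by 1.12 ± 0.16. GCN4, the activator of these genes, which is regulated mainly in translation, was not called, with 1983 to 2234 CPM in cup1F8* and 1962 to 2252 CPM in WT. HIS4, one of its targets, was not called either, but it was called without cup1F8* replicate 4 and with the replicate block. The genes called higher included SER3, of serine synthesis, at 0.98 ± 0.08, and GDH2, which releases ammonium from glutamate, at 0.67 ± 0.11.

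Sulfur assimilation had 16 of 24 genes lower and 3 higher, with a median of -0.71. SAM1 and SAM2 make S-adenosylmethionine, the methyl donor. SAM1 had 189, 199, 207 and 216 CPM in cup1F8* and 599.8, 768 and 897 CPM in WT, a log2 fold change of -1.90 ± 0.12 (edgeR adjusted p = 3.88e-07), and SAM2 one of -1.81 ± 0.13. SUL1, a sulfate importer, rose by 0.90 ± 0.16 and MET3, the first enzyme of assimilation, by 0.64 ± 0.18. Of 22 nitrogen catabolite genes, 6 (27.3%) were higher and 3 (13.6%) lower, below the 34.3% and 34.8% of all genes. PUT1, proline oxidase of mitochondria, had 639, 516, 418 and 625 CPM in cup1F8* and 158, 61 and 113 CPM in WT, a log2 fold change of 2.31 ± 0.28, and the proline permease gene PUT4 rose by 1.21 ± 0.09. MEP2, an ammonium permease, was not called and ranged from 44.1 to 211 CPM within cup1F8*. Leaving out cup1F8* replicate 3 gave 10 nitrogen genes called higher, and MEP2 was then called.

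Genes of sterol and fatty acid synthesis were lower in 20 of 32 cases and higher in 5, with a median of -0.44. Fatty acid synthesis and desaturation genes were lower in 6 of 7 cases and higher in 1 (median -1.01). Ergosterol genes were lower in 14 of 25 cases and higher in 4 (median -0.39). ERG7, lanosterol synthase, had 74.1, 91.8, 86.1 and 85.5 CPM in cup1F8* and 171, 193 and 199.7 CPM in WT, a log2 fold change of -1.15 ± 0.09 (edgeR adjusted p = 1.2e-06), and ELO2, a fatty acid elongase, fell by 1.22 ± 0.08. ERG11 and ERG3 fell by 0.58 each. OLE1, the desaturase that needs iron and oxygen, rose by 0.48 ± 0.11. Phosphate genes were lower in 7 of 16 cases (43.8%) and higher in 3 (18.8%), and PHO84, the main importer, fell by 0.67 ± 0.15. PHO89, the sodium-coupled importer, had 100.4, 74.3, 86.4 and 104 CPM in cup1F8* and 16.4, 27.1 and 26.6 CPM in WT, a log2 fold change of 1.98 ± 0.18.

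Iron and zinc genes had the highest medians of the lists. Of 15 iron regulon genes, 14 were higher and 0 lower (median 2.12), and the copper oxidase gene FET3 had 5105, 3338, 4316 and 4973 CPM in cup1F8* and 487, 421 and 412 CPM in WT. All 6 zinc regulon genes were higher (median 1.92), led by ZPS1, with 3088 to 4076 CPM in cup1F8* and 15.9 to 22.3 CPM in WT, a log2 fold change of 7.55 ± 0.16 (edgeR adjusted p = 4.35e-09).

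Outside all lists, the largest rises among named genes that did not overlap between the strains were those of FMP45, TIR2, LEE1, EGO4 and HAB1. FMP45, a membrane protein of the cell cortex, had 159, 121, 155 and 254 CPM in cup1F8* and 17.4, 12.9 and 15.6 CPM in WT, a log2 fold change of 3.49 ± 0.28 (edgeR adjusted p = 2.32e-06). EGO4 had 513, 439.7, 588 and 508 CPM in cup1F8* and 116, 79.6 and 75.4 CPM in WT, a log2 fold change of 2.50 ± 0.16. The largest falls were those of IMD4, GFD2, MTO1, URA7 and UPS2. IMD4, an IMP dehydrogenase of guanine nucleotide synthesis, had 54.1, 56.5, 49.5 and 57.2 CPM in cup1F8* and 284, 371 and 395 CPM in WT, a log2 fold change of -2.69 ± 0.11. URA7, the CTP synthase, had 63.7 to 72.4 CPM in cup1F8* and 302 to 413 CPM in WT. MTO1, which modifies mitochondrial tRNA, had 18.5 to 21.2 CPM in cup1F8* and 108 to 116 CPM in WT.

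Promoter letters were counted in the 300 bases before the start codon on both strands for 6006 genes, of which 5666 were tested. AGGGG was present in 22.2% of all promoters, GATGAG in 19.1%, AAAATTT in 24.4% and GGTGGC in 6.43%. Among the lists, GATGAG was present in 88.3% of ribosome assembly promoters and AAAATTT in 95.9%, but in only 11.7% and 28.5% of those of cytosolic ribosomal proteins. AGGGG was present in 72.7% of glycerol, 68.6% of general stress, 50% of storage carbohydrate, 42.9% of respiratory chain, 41.7% of oxidative stress, 40.6% of gluconeogenesis and 38.1% of TCA cycle promoters, so lists with many lower genes also held it. It was present in 28.6% of autophagy promoters. GGTGGC was present in 86.5% of proteasome promoters. Of tested genes with AGGGG, 48.9% were higher and 24.9% lower in cup1F8*, against 30% and 38.9% of those without it. Of genes with both GATGAG and AAAATTT, 11.5% were higher and 73.8% lower, with a median log2 fold change of -0.94, against 36.1% and 32.6% of the other genes. The 442 genes with both include most of the ribosome assembly list, so these shares are not independent of its counts. With GGTGGC, 35.7% were higher and 28.1% lower, against 34.1% and 36.3% of the genes without it. The 370 tested genes with GGTGGC include 32 of the proteasome list. GPH1 and ATG1 held none of the 4 motifs in this window, and such counts describe letters only.

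**Figure D4:**
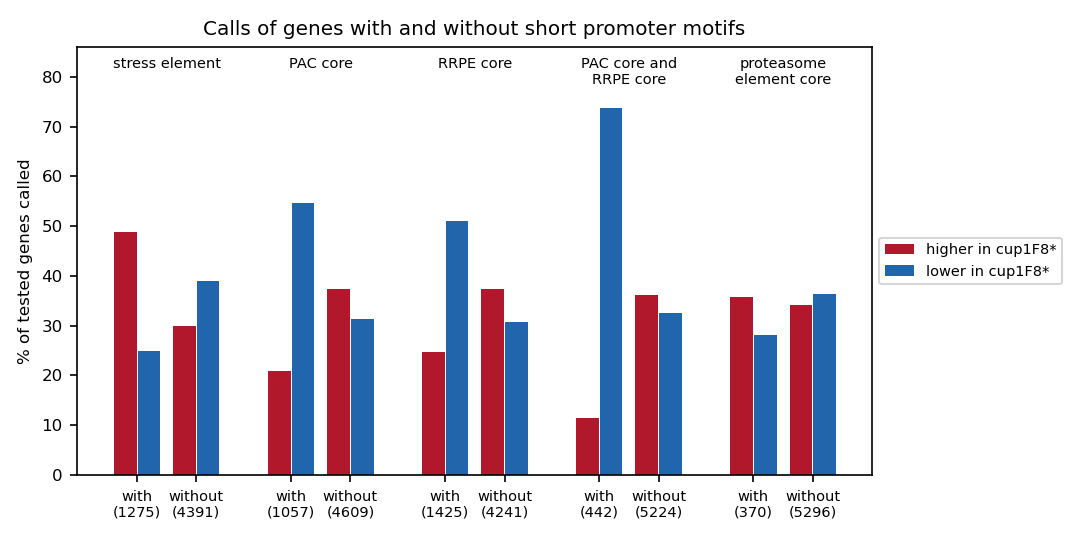
Bars give the percent of tested genes called higher (red) and lower (blue) in cup1F8* than in WT, for genes with and without each motif in the 300 bases before the start codon, with the number of genes in brackets. Of the 442 genes with both the PAC and RRPE cores, 73.8% were lower, against 32.6% of the others, and of the 1275 genes with the stress element, 48.9% were higher, against 30% of the others.

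The stop codon was also compared in the H3A110C background, in libraries that the first comparison did not use but with the same confounding of allele and set. There, 2062 of 5873 genes (35.1%) were higher and 1989 (33.9%) were lower in H3A110Ccup1F8* than in H3A110C. Of all genes there, 8.67% were higher and 8.6% lower past 1 on the log2 scale, and the CPM did not overlap for 68.3%. With total counts only the split was 2445 higher and 1601 lower, and the median of all genes 0.13. Cytosolic ribosome genes were lower in 130 of 134 cases (median -1.11), ribosome assembly genes in 141 of 145 (median -1.20) and RNA polymerase I and III genes in 20 of 22. Storage carbohydrate genes were higher in 20 of 22 cases (median 1.52), general stress genes in 33 of 35 (median 1.40), autophagy genes in 30 of 41 (median 0.72) and proteasome genes in 29 of 37. Other lists differed more from the first comparison. Mitochondrial ribosome genes were lower in 37 of 75 cases and higher in 8 (median -0.20). TCA cycle genes were lower in 11 of 21 cases and higher in 5 (median -0.23). Genes of complex III and cytochrome c were lower in 6 of 16 cases and higher in 6. Fatty acid oxidation genes were higher in 13 of 15 cases (median 0.98). GLC3 averaged 1259.7 ± 67.9 CPM in H3A110Ccup1F8* and 274 ± 191 CPM in H3A110C (SD, n = 4 and 3), a log2 fold change of 2.20 ± 0.39. NSR1 averaged 142 ± 22.5 CPM in H3A110Ccup1F8* and 614 ± 56.4 CPM in H3A110C, a log2 fold change of -2.11 ± 0.11. ATG8 had a log2 fold change of 1.13 ± 0.11 there and HSP104 one of 2.50 ± 0.11.

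The difference of the effects was tested in 1 fit of the 14 libraries, an analysis chosen after seeing the data. It called 962 of 5954 genes (16.2%), with 498 higher and 464 lower effects in the H3A110C background, by edgeR's quasi-likelihood test. Of the named genes, CTT1 had a larger rise in the H3A110C background, by 1.60 on the log2 scale (edgeR adjusted p = 0.012), as did HSP12, by 0.66 (adjusted p = 0.0474). POX1, not called in cup1F8* over WT, had a log2 fold change of 1.17 in the H3A110C background, a difference of 1.25 (adjusted p = 0.00464). CYC1 fell less there, with a difference of 1.02 (adjusted p = 0.00444), and the rise of TDH1 was smaller, with a difference of -1.25 (adjusted p = 0.000807). JEN1 and PCK1 had differences of -0.58 (adjusted p = 0.0258) and -0.77 (adjusted p = 0.00753). For GLC3, NSR1, ATG1 and ATG8 the difference was not called, which does not show that the effects were equal. The zinc regulon had opposite directions, with all 6 genes higher in cup1F8* than in WT and all 6 lower in H3A110Ccup1F8* than in H3A110C (median -0.57).

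**Figure D5:**
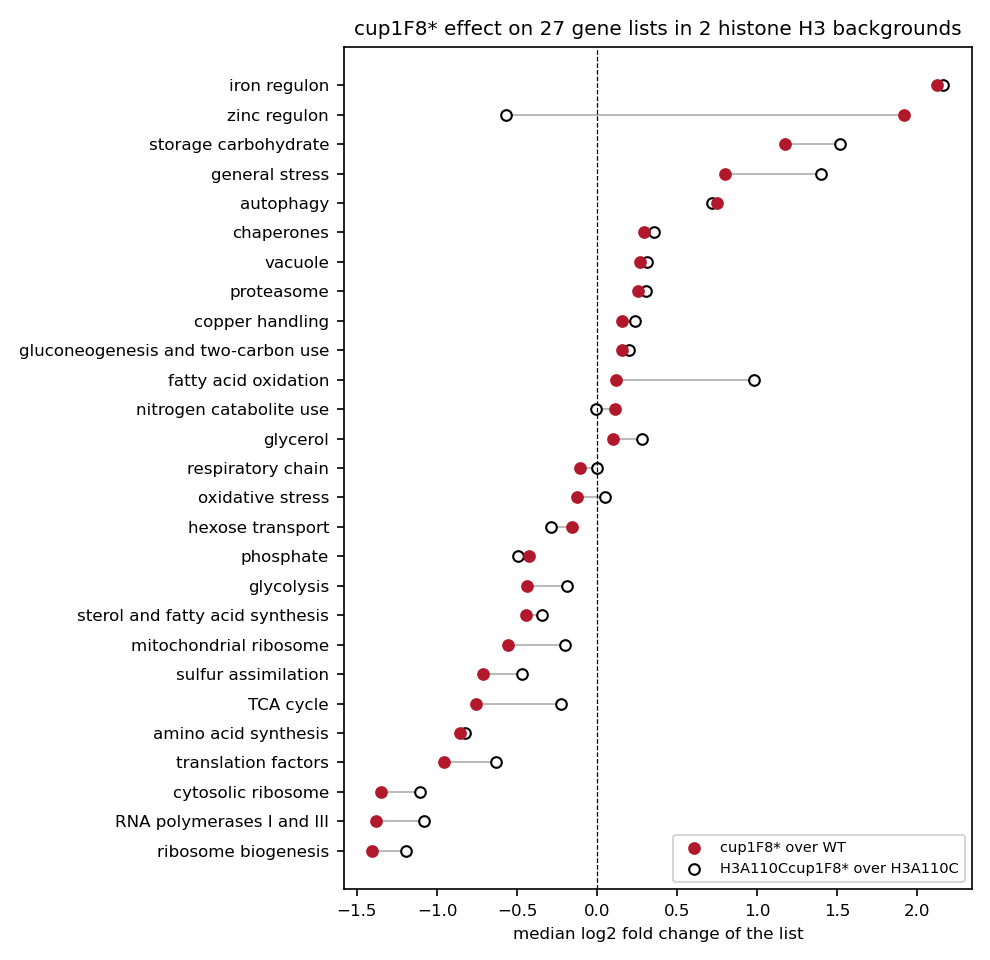
Each row is 1 of the 27 gene lists, and the horizontal axis is the median log2 fold change of its tested genes, with filled points for cup1F8* over WT and open points for H3A110Ccup1F8* over H3A110C. Ribosome assembly lies at -1.40 and -1.20 and storage carbohydrate at 1.17 and 1.52, while the zinc regulon lies at 1.92 and -0.57.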

How the data were processed

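RNA was extracted with hot acid phenol, and stranded libraries of polyadenylated RNA were sequenced. The authors aligned reads with HISAT2 to the R64-1-1 genome, counted them per gene with featureCounts and deposited raw counts for 6692 genes, which were used here. A second deposited table holds the same counts divided by DESeq2 size factors and was not used. Groups came from the labels.

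Each pair of strains was fitted alone with edgeR 4.0.16 in R 4.3.3 (TMM factors, filterByExpr, quasi-likelihood test). P-values were adjusted by Benjamini-Hochberg across all tested genes, with a threshold of 0.05. CPM are normalized by TMM unless given by library totals. DESeq2 1.42.0, other scalings and filters, all 20 SCEG libraries in 1 fit, a replicate block, removal of GC and length trends, thinning and leaving out each library were tried. Tested on simulated data for cup1F8* over WT with 5879 genes, 200 of them changed, the edgeR step recovered 100% of 2-fold and 100% of 4-fold changes with 10 false calls. In the real data 69.1% of genes were called, and no difference between sets was simulated. The simulated figures therefore need not hold for the real data. Replicates differed by more than sampling noise, with chi-square per gene of 7.41 to 19.2 in cup1F8* and 9.89 to 15.7 in WT.

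The 27 gene lists, their members and the named genes' rule were chosen with earlier results of these data known. Named genes were the key genes of each role, the 2 largest called rises and falls of each list and, outside the lists, the 5 largest of each among called genes with a standard name, at least 50 CPM in 1 strain and no overlap. Of the 6692 identifiers, 684 were not matched to the RefSeq R64 annotation, and 12 list members were not tested. Genome position and promoter letters were read from that assembly with Python 3.11.15. Single-gene results of a few named genes are not reported here.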

Additional observations from a re-analysis of the deposited data

Results flagged for a closer look

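Of 229 values tested among the 4 cup1F8* libraries, 16 had 1 library far from the others, where chance alone gives about 1 in 20. Replicate 1 was low for sulfur assimilation genes, at 0.2195% of counts, against 0.2473 to 0.25% in the others. Replicate 2 was low for UPC2, at 72.45 CPM, and high for NDI1 (592.4 CPM) and RPA190 (209.8 CPM). Replicate 3 was low for GFD2 (12.13 CPM), GPP1 (88.37 CPM) and HXT9 (1.306 CPM), and high for GUT1 (722 CPM), TDH1 (2492 CPM) and PXA1 (236.4 CPM). Replicate 4 was high for SNF3 (252.9 CPM) and low for DAL1 (3.615 CPM), JEN1 (3817 CPM), ADH3 (319.3 CPM), RPS3 (728.3 CPM) and EFT1 (107.9 CPM).

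The effect of cup1F8* differed between the H3A110C and WT backgrounds for 962 genes by edgeR's quasi-likelihood test. Of the named genes, 9 were called in opposite directions in the backgrounds, and all 9 had a called difference. They were picked by opposite calls in the same libraries that the difference test used. A called difference was thus nearly fixed in advance and is no separate evidence. On the log2 scale, the effect in the H3A110C background minus that in the WT background was -8.246 for ZPS1 (edgeR adjusted p = 1.43e-12), -4.944 for ZRT1, -3.724 for ADH4, -3.529 for TIR2, -2.461 for PHO89 and -1.04 for UPC2. It was 1.872 for LEU1 (edgeR adjusted p = 3.89e-05), 0.85 for GLG2 and 0.7222 for TES1. The calls of GLG2 and TES1 as lower in cup1F8* than in WT depended on single libraries. GLG2 was not called without WT replicate 1, WT replicate 3 or cup1F8* replicate 4. TES1 was not called without WT replicate 1 or without cup1F8* replicate 1, 3 or 4. Its WT libraries had 180.5, 111.7 and 109.8 CPM. LEU1, an iron-sulfur enzyme of leucine synthesis, fell by 0.93 in cup1F8* relative to WT and rose by 0.99 in H3A110Ccup1F8* relative to H3A110C.

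Counts of 15 genes were near 0 in every SCEG library but not in the SC libraries, which enter no comparison here. HYP2, the translation factor eIF5A, had 0 counts in SCEG and 11039 to 18991 counts in SC.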

How the results depend on the processing

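The counts of called genes over all genes tested stayed within 1.5 times those reported under every alternative run. Of the counts within lists, 26 of 648 moved by more under other settings and 24 of 378 with 1 library left out. With total counts only, for example, 14 respiratory chain genes and 6 glycerol genes were higher, against 9 and 3 as reported. Leaving out 1 library gave 1887 to 2004 genes higher and 1922 to 2034 lower in cup1F8*. The replicate block gave 1870 higher and 1914 lower, and 1858 higher and 1776 lower in the H3A110C background. Deviations of libraries with the same number correlated at 0.0462, 0.111 and 0.106 over the pairs, with a mean of 0.0877. Those with different numbers correlated at -0.151 to 0.0755, with a mean of -0.0292. Deviations from the group mean sum to 0 within a strain. The mean for different numbers thus largely follows from that for the same number and is no separate observation. The cup1F8* replicate 1 did not correlate best with its own number. These small values do not settle whether the numbers pair the libraries. DESeq2 called 1999 higher and 2040 lower. Of the list medians, 299 of 324 values under other settings and 185 of 189 with 1 library left out moved by less than the spread between replicates. With total counts only, medians were -1.19 for cytosolic ribosome, -1.25 for ribosome biogenesis, -0.80 for translation factors, -0.40 for mitochondrial ribosome, 0.91 for autophagy, 0.43 for vacuole, 0.42 for proteasome, 0.0329 for oxidative stress, 0.31 for copper handling, 0.0520 for respiratory chain, 0.26 for glycerol, 0.28 for fatty acid oxidation and -0.28 for sterol and fatty acid synthesis, and VPS4 had a log2 fold change of 0.017, against -0.14 as reported. These shifts follow the scaling, which moved the median of all genes to 0.16. With trends in GC content and gene length removed, medians were -1.46 for cytosolic ribosome, -1.61 for ribosome biogenesis, -1.08 for translation factors, 0.11 for vacuole, 0.0238 for chaperones, -0.0289 for oxidative stress and 0.0161 for copper handling, and the cause was not tested. With the replicate block as well, they were -1.45 for cytosolic ribosome, -1.60 for ribosome biogenesis, 0.10 for vacuole, 0.0514 for chaperones and -0.0111 for oxidative stress, with 1401 genes higher and 2229 lower. With 1 library left out, the storage carbohydrate median ranged over 1.03 to 1.44 and that of fatty acid oxidation over -0.0660 to 0.33, with -0.0517 without WT replicate 2. Among named genes, 1948 of 2016 values under other settings and 1356 of 1410 with 1 library left out kept direction and side of the threshold. YAP1 and TDH3 lost their calls with trends in GC content and gene length removed. ATP1 lost its call with total counts only, and HXK1 with all 20 SCEG libraries in 1 fit. YCF1, GCN4, FBP1 and GLR1, not called as reported, were called with total counts only. The lower depth of WT limits what can be said of genes under 0.805 CPM there.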
